A study of Drosophila melanogaster with 185 samples.

Results

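V3 neurons are output neurons of the mushroom body, the centre for olfactory learning in the fly brain. The comparison described here set 5 libraries of V3 control neurons from Drosophila melanogaster against 3 libraries of V3 whole flies, that is, 8 of the 101 libraries of the series once the runs of each library were summed. The members were chosen by label alone, as the control libraries of the V3 class and the whole-fly libraries of its driver, CG0239-GAL4. The series text gives the purpose of the whole flies as accounting for differences of background, and the question is what V3 neurons express over a whole fly of the matching genotype.

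As background, V3 neurons carry dendrites at the tip of the vertical lobe, where they receive acetylcholine from Kenyon cells, the intrinsic neurons of the mushroom body, and dopamine from modulatory neurons. They have been described as cholinergic and have been tied to the retrieval of long-term aversive memory. Learning in this circuit is known to use cAMP, protein kinase A, CaMKII and locally controlled translation.

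The V3 control neurons were marked by CG0239-GAL4 driving GFP, were found by position and fluorescence, and were drawn into a patch pipette from living flies, 4 cells per library. Their flies had received shock and odour unpaired, the shock first, in spaced blocks. V3 whole flies carried CG0239-GAL4/UAS-GFP and are labelled as controls of the same training. Read beside them were 5 V3 trained libraries, from flies whose odour was paired with shock, and 2 brain libraries of the UAS-GFP genotype without a driver. The titles give both brain libraries the same number with different letters, and no label says that they came from separate flies. Control neurons and driver-matched whole flies of 3 other neuron classes with 4 cells per library, DAL, 3-86 and R27G01, served for the test of what differed in V3. All groups shared the w1118 background, the UAS-GFP reporter and matching for age and parents. The labels used here give no sex and no age, and nothing ties a library to an animal, so p-values measure only the spread between libraries. A GAL4 line marks every cell in which it is active, so the class rests on the position of the cell that was taken.

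Libraries of V3 control neurons held 5901543 to 12082573 counts over 6941 to 8825 detected genes, against 6032423 to 7315339 counts over 9608 to 9702 genes in V3 whole flies. Levels are given as CPM, counts scaled to the same library total for every library, in the order of V3 libraries 1 to 5 and then whole flies 1, 2 and 4. They are not per length, so levels are compared only within a gene. Log2 differences are V3 minus whole fly, from edgeR's quasi-likelihood test, and a gene is called at an adjusted p under 0.05 (Benjamini-Hochberg). The value after ± is an approximate standard error, worked back as the size of the log2 difference over the square root of the F statistic. Where a group held 1 to 3 counts of a gene in all, the ratio of CPM is given with its 95% interval, which covers counting error only, in place of the fitted value; where it held 0, the fold is a lower bound against 3 counts in that group. The TMM scaling of edgeR lowers each log2 difference by 0.85 relative to the ratio of the CPM. In bulk samples, fewer cells of a type and less RNA per cell cannot be told apart. V3 libraries were made from 4 cells and the others from a fly, so starting material and cell source cannot be told apart either.

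All 22 listed pan-neuronal genes were higher in V3 control neurons than in V3 whole flies, where 12.8% of the 8767 genes tested were called higher. Their median log2 difference was 5.83, beside -0.10 for all genes tested. Every V3 library lay above every whole fly for all 22 of them, as it did for 21.8% of the genes tested. brp, the scaffold of the presynaptic active zone, had 950.1, 1099, 626, 746 and 631 CPM in V3 neurons, against 1.91, 2.65 and 2.3 CPM in whole flies (log2 difference 7.62 ± 0.50, adjusted p = 6.93e-06). For Syn, which coats synaptic vesicles, the levels were 1358, 1061, 1066, 867 and 580.4 CPM in V3 neurons and 3.01, 3.65 and 3.52 CPM in whole flies (log2 difference 7.34 ± 0.53, adjusted p = 1.15e-05). The RNA-binding protein gene fne had 5336, 6678, 4923, 4636 and 3090 CPM in V3 neurons, against 14.5, 14.4 and 18.8 CPM in whole flies (log2 difference 7.41 ± 0.55, adjusted p = 1.22e-05). None of these groups overlapped. 21 of the 22 kept the call whichever 1 of the 8 libraries was left out. The exception was Nrg, an adhesion molecule with a log2 difference of 1.72 ± 0.55, which lost it in 6 of the 8 fits.

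**Figure D1:**
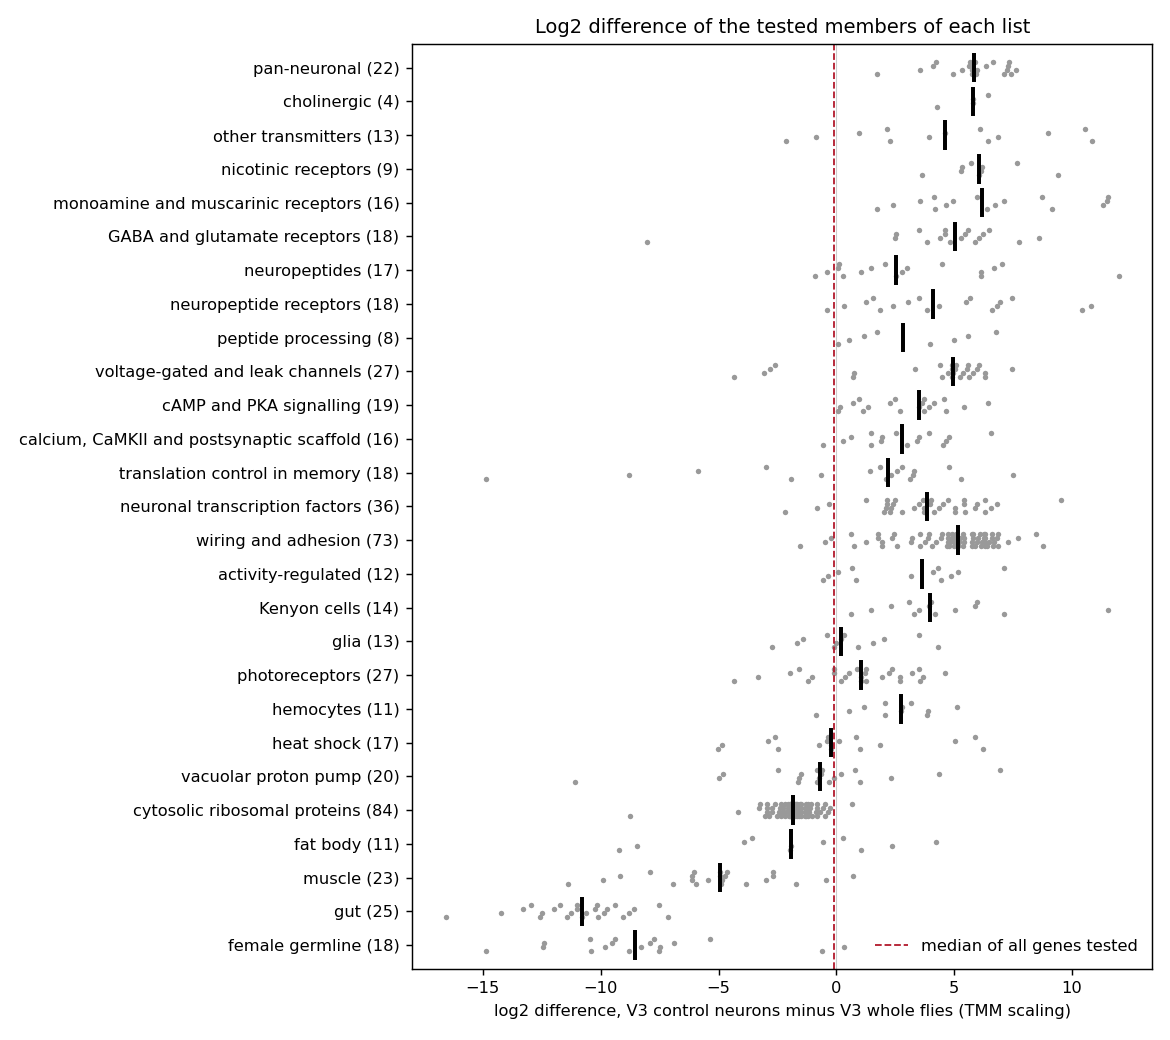
Log2 difference between V3 control neurons and V3 whole flies for every tested member of each gene list (grey points), with the list median (black bar); the dashed line is the median of all 8767 genes tested, -0.10. Lists of neuronal genes sit to the right, with medians up to 6.19, and gut, muscle and female germline genes to the left, down to -10.80. Members that did not pass the filter on low counts are not drawn.

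Markers of other cells were read in the same libraries. Of 16 glial genes, 13 were tested; bnb was higher and Gs2, glutamine synthetase, lower, while repo, the glial transcription factor, had 7.85, 17.6, 0, 0.339 and 0.91 CPM in V3 neurons and 0, 1.66 and 0.613 CPM in whole flies. The summed glial level was 394 to 1288 CPM in V3 neurons and 643 to 1097 CPM in whole flies, with gcm at 0 in all 8 libraries and alrm at 0 in all V3 libraries but the third. Of 29 photoreceptor genes, 27 were tested, 5 were higher and none was lower, beside 12.8% of all genes tested called higher. Their median log2 difference was 1.06, and all 5 calls held without any 1 library. Without V3 library 5, 5 were higher and 5 lower, with a median of -1.09. Photoreceptor genes summed to 3930, 5121, 3197, 2189 and 23220 CPM in V3 neurons, against 4433, 4887 and 7707 CPM in whole flies. The fifth V3 library stood apart here: ninaE, the main opsin, had 710.5, 474, 238, 169.6 and 8679 CPM in V3 neurons and 3062, 3409 and 5339 CPM in whole flies (log2 difference -1.96 ± 1.09, adjusted p = 0.232). The same library held the most hemocyte RNA, with summed levels of 348, 648, 130.4, 205 and 2468 CPM over 12 genes in V3 neurons, against 61, 80.1 and 101 CPM in whole flies. Hml, hemolectin of blood cells, was called higher (log2 difference 3.89 ± 1.17, adjusted p = 0.0309) and lost the call without that library, and without any 1 whole fly.

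RNA of fat body genes was present in every V3 library. Of 15 listed, 11 were tested, none was higher and 4 were lower, beside 13.6% of all genes tested called lower. The 15 fat body genes summed to 16370, 3864, 3125, 29190 and 17210 CPM in V3 neurons, 85700, 60910 and 64050 CPM in whole flies and 917 and 821.1 CPM in brains. Yp1, a yolk protein secreted into the blood, had 6152, 1394, 903, 12150 and 5921 CPM in V3 neurons, against 48520, 30870 and 30330 CPM in whole flies (log2 difference -3.57 ± 0.78, adjusted p = 0.00662) and 238 and 205 CPM in brains. Yp3 had 4979, 1231, 1006, 8365 and 3338 CPM in V3 neurons, 9792, 9126 and 7064 CPM in whole flies and 61.5 and 92.8 CPM in brains. Fbp1 and Lsp1gamma of the same list were at 0 in all V3 libraries. Summed gut RNA was at most 16.6 CPM in 4 V3 libraries and stood at 787 CPM over 27 genes in the third. Which cells the RNA of these lists came from was not tested, nor was its part in the results below. With V3 libraries 3 and 5 left out together, an alternative added after seeing the data, 1155 genes were higher and 1424 lower, close to the counts below.

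**Figure D2:**
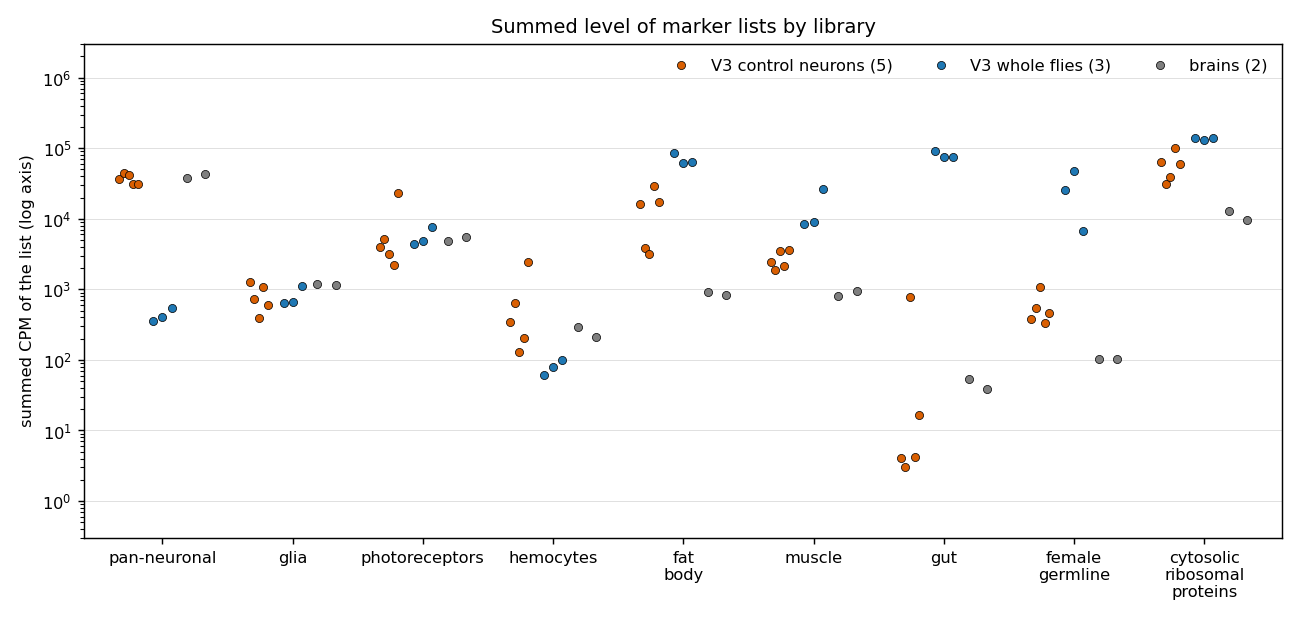
Summed CPM (log axis) of marker lists in each V3 control library (orange), V3 whole fly (blue) and brain (grey), 1 point per library. V3 library 5 stands above the other V3 libraries for photoreceptor and hemocyte genes, at 23220 and 2468 CPM, and library 3 for gut genes, at 787 CPM.

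Across all genes, 1126 of 8767 were higher in V3 neurons and 1192, or 13.6%, were lower. With library totals in place of TMM, an alternative added after seeing the data, 1696 were higher and 906 lower, and the median of all genes moved from -0.10 to 0.76, so directions are relative to the scaling. With only the V3 libraries sequenced in 2 lanes, as the whole flies were, the counts were 1089 and 1617. Among higher genes averaging at least 50 CPM in V3 neurons, without overlap between groups, the 15 largest log2 differences were read. Of these genes, 3 belong to monoamine transmission: Tdc2 and Tbh of octopamine synthesis, and Vmat, the vesicular loader of monoamines. A further 5 encode receptors, 5-HT1A, 5-HT1B, mAcR-60C, Nmdar1 and SIFR. The others were the neuropeptide gene Dh44, the cell-surface gene dpr9, unc-13-4A, and 4 genes that the files give by number only, CG34391, CG43222, CG30172 and CG14693. CG43222 had 284, 144, 946, 342 and 119 CPM in V3 neurons, against 0, 0.166 and 0 CPM in whole flies (V3 to whole fly CPM ratio 6650, interval 1190 to 263000, adjusted p = 0.000131). Its brain levels were 22.5 and 4.84 CPM (V3 minus brain 5.25 ± 1.13, adjusted p = 0.00926). CG30172 had 393, 366, 490.1, 384 and 272 CPM in V3 neurons, 0, 0.497 and 0.153 CPM in whole flies (log2 difference 9.96 ± 0.86, adjusted p = 2.98e-05) and 24 and 18.5 CPM in brains (V3 minus brain 4.62 ± 0.73, adjusted p = 0.00203). unc-13-4A, of the family of synaptic vesicle priming factors, had 462, 863, 483, 648 and 392 CPM in V3 neurons and 1.09, 0.663 and 0.459 CPM in whole flies (log2 difference 8.74 ± 0.63, adjusted p = 1.15e-05), and V3 neurons were above brains by 1.63 ± 0.49 (adjusted p = 0.0416). In these 3 genes V3 neurons were higher than brains as well as whole flies. CG34391, at 299, 323, 385, 310.3 and 246 CPM in V3 neurons and 0.683, 0.497 and 0 CPM in whole flies (log2 difference 8.78 ± 0.84, adjusted p = 5.67e-05), had 231 and 207 CPM in brains and was not called there (adjusted p = 0.298).

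The transmitter genes of V3 neurons covered several transmitters at once. All 4 cholinergic genes were higher than in whole flies, beside 12.8% of all genes tested. Cha, choline acetyltransferase, had 147, 139, 86.2, 544 and 504 CPM in V3 neurons, against 2.05, 2.49 and 1.07 CPM in whole flies (log2 difference 6.45 ± 0.90, adjusted p = 0.000493). VAChT, the vesicular acetylcholine transporter, had 468, 458, 145, 639 and 709 CPM in V3 neurons and 5.88, 5.47 and 3.37 CPM in whole flies (log2 difference 5.80 ± 0.65, adjusted p = 0.000126). The third library was the lowest for both, and no V3 library overlapped a whole fly. The 2 genes share a locus, so that reads of their common part may have been given to either. CG7708, a choline transporter homologue, and Ace, acetylcholinesterase, had log2 differences of 5.80 ± 0.73 and 4.29 ± 0.63 (adjusted p = 0.000246 and 0.000631). All 4 calls held without any 1 of the 8 libraries.

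Of 15 genes for other transmitters, 13 were tested and 7 were higher, beside 12.8% of all genes tested. The call of DAT is qualified below. Vmat, which loads monoamines into vesicles, had 18770, 5098, 49910, 9408 and 2928 CPM in V3 neurons, against 5.47, 6.96 and 6.43 CPM in whole flies (log2 difference 10.56 ± 1.30, adjusted p = 0.000214). Tdc2, the neuronal tyrosine decarboxylase that makes tyramine, had 299, 106, 1023, 293 and 101 CPM in V3 neurons, against 0.273, 0 and 0 CPM in whole flies (V3 to whole fly CPM ratio 3280, interval 909 to 27100, adjusted p = 0.000331). Tbh, which turns tyramine into octopamine, had 526, 191, 2275, 30.2 and 105 CPM in V3 neurons, against 0, 1.82 and 0.306 CPM in whole flies (log2 difference 8.98 ± 1.91, adjusted p = 0.00591). All 5 V3 libraries held all 3 genes, with the third the highest in each, and all 3 calls held without any 1 library. Genes of octopamine neurons thus stood beside those of cholinergic neurons in the same libraries. Whether a library held cells of both kinds was not tested.

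VGlut, the vesicular glutamate transporter, had 734, 1449, 2959, 314 and 493 CPM in V3 neurons, against 4.1, 3.81 and 8.12 CPM in whole flies (log2 difference 6.87 ± 0.96, adjusted p = 0.000469). Ddc, dopa decarboxylase, had 270.2, 891, 171, 153 and 368 CPM in V3 neurons and 5.88, 9.12 and 9.34 CPM in whole flies (log2 difference 4.63 ± 0.72, adjusted p = 0.000908). VGAT, which loads GABA, had 167, 302, 5.75, 63.9 and 25.5 CPM in V3 neurons and 0.82, 1.49 and 0 CPM in whole flies (log2 difference 6.43 ± 1.59, adjusted p = 0.0114). These 3 genes were above the whole flies in every V3 library. Gad1, which makes GABA, split the V3 libraries: it had 933, 2916, 11.6, 743 and 6.79 CPM, against 19.8, 21.6 and 55.6 CPM in whole flies, and was not called (log2 difference 3.95 ± 1.74, adjusted p = 0.133). DAT, the dopamine transporter, was called with 3.92, 92, 116, 35.1 and 0.0828 CPM in V3 neurons, against 0.41, 0.663 and 0.153 CPM in whole flies, but the call was lost without any 1 of V3 libraries 2, 3 and 4 or any 1 whole fly. ple, tyrosine hydroxylase, ranged 7.2 to 295 CPM in V3 neurons and 4.48 to 23.4 CPM in whole flies (adjusted p = 0.291). Trh, which makes serotonin, had 0, 0.383, 0.14, 0.339 and 34.1 CPM in V3 neurons and 3.01, 1.49 and 0.919 CPM in whole flies, and the serotonin transporter gene SerT was at 0 in 3 of 5 V3 libraries and in all 3 whole flies.

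**Figure D3:**
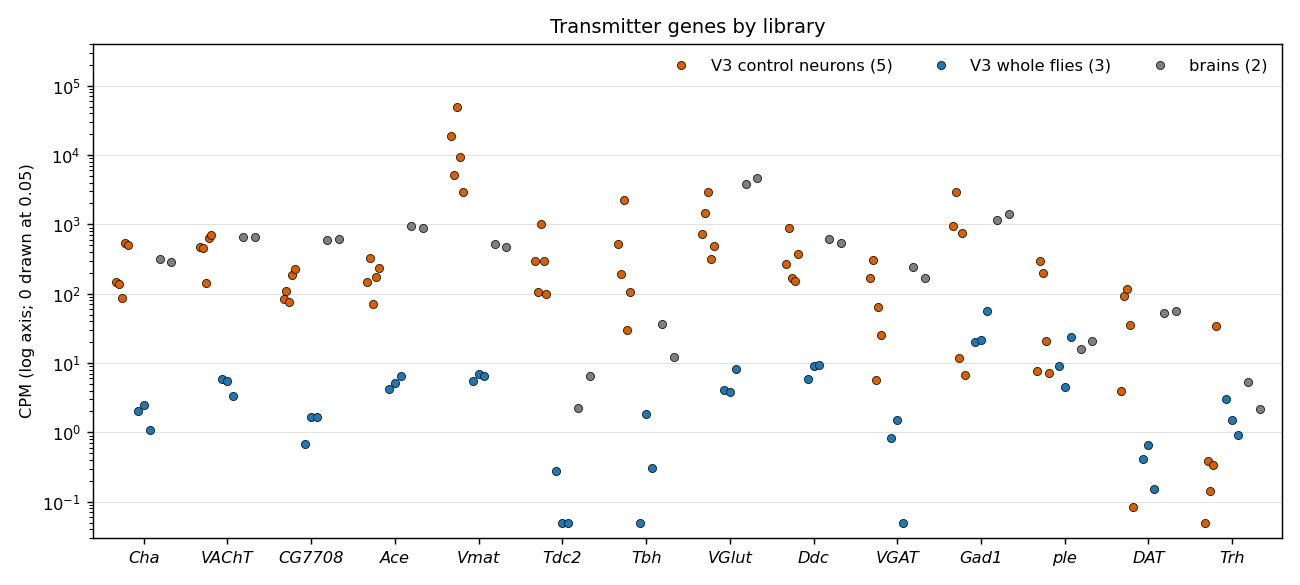
CPM (log axis, with 0 drawn at 0.05) of transmitter genes in each V3 control library (orange), V3 whole fly (blue) and brain (grey). For Vmat the V3 libraries lie at 2928 to 49910 CPM, the whole flies at 5.47 to 6.96 CPM and the brains at 465 to 524 CPM; for Gad1 2 of the 5 V3 libraries lie below every whole fly.

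Set against brains, Vmat and Tdc2 were higher in V3 neurons as well. Vmat had 524 and 465 CPM in brains (V3 minus brain 5.55 ± 1.15, adjusted p = 0.00792), and Tdc2 had 2.25 and 6.6 CPM (V3 minus brain 6.72 ± 1.33, adjusted p = 0.00615). Tbh had 36 and 12.3 CPM in brains and was not called (adjusted p = 0.0832). Ace and CG7708 were lower in V3 neurons than in brains, with log2 differences of -1.84 and -1.73 (adjusted p = 0.0249 and 0.0402). Cha and VAChT had V3 minus brain values of 0.38 and 0.01 and were not called. The brains carry no driver, so genotype and cell source cannot be told apart here.

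The trained V3 libraries share the whole flies with the comparison above, so their values are given beside it only. Vmat had 13850, 19340, 8511, 46.7 and 20390 CPM in trained V3 libraries 1 to 5, Tdc2 had 372, 130, 151, 0.377 and 622 CPM and Tbh had 346, 242, 177, 28.6 and 827 CPM. Trained library 4 was the lowest for all 3 genes. Against the same whole flies, the trained libraries gave a log2 difference of 10.24 for Vmat (adjusted p = 0.00224) and of 8.21 for Tbh (adjusted p = 0.00163), and Tdc2 was higher at adjusted p = 0.00514.

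Vmat, Tdc2 and Tbh were next set against the other classes. In DAL, 3-86 and R27G01 control libraries, the lowest, median and highest Vmat levels were 2.57, 14.9 and 37.8 CPM, 0.765, 11.3 and 1127 CPM and 0, 1.24 and 7.34 CPM in turn, against 2928 to 49910 CPM in V3. The lowest V3 control library lay above the highest of the 15 others. V3 trained library 4, given above, lay below that 3-86 library. Among control libraries, Tdc2 and Tbh did not separate V3 from the other classes. Tdc2 reached 185.5 CPM in a DAL library, above V3 libraries 2 and 5, and was at most 1.9 CPM in 3-86 and 18.2 CPM in R27G01. Tbh reached 62.2 CPM in a 3-86 library, above V3 library 4, was at most 14.3 CPM in DAL and was at 0 in all R27G01 libraries. Taking each class relative to its own whole flies, the V3 difference minus the mean of the other 3 was 9.46 ± 2.30 for Vmat (unadjusted p = 0.000328, adjusted p = 0.157 by edgeR) and 8.01 ± 2.66 for Tbh (adjusted p = 0.298). For Tdc2 the adjusted p was 0.366, so none of the 3 passed the threshold. DESeq2 gave adjusted p = 1.77e-08 for Vmat, 0.17 for Tdc2 and 0.00812 for Tbh; over the 14 settings run, the adjusted p ranged from 1.77e-08 to 0.703 for Vmat, from 0.17 to 1 for Tdc2 and from 0.00812 to 0.731 for Tbh. VGlut had 314 to 2959 CPM in V3 and, as lowest, median and highest, 1315, 1729 and 2832 CPM in DAL, 3126, 9453 and 14850 CPM in 3-86 and 4136, 9332 and 11820 CPM in R27G01 (difference of differences -2.07 ± 0.61, adjusted p = 0.251). The V3 range held that of DAL and lay below those of 3-86 and R27G01.

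**Figure D4:**
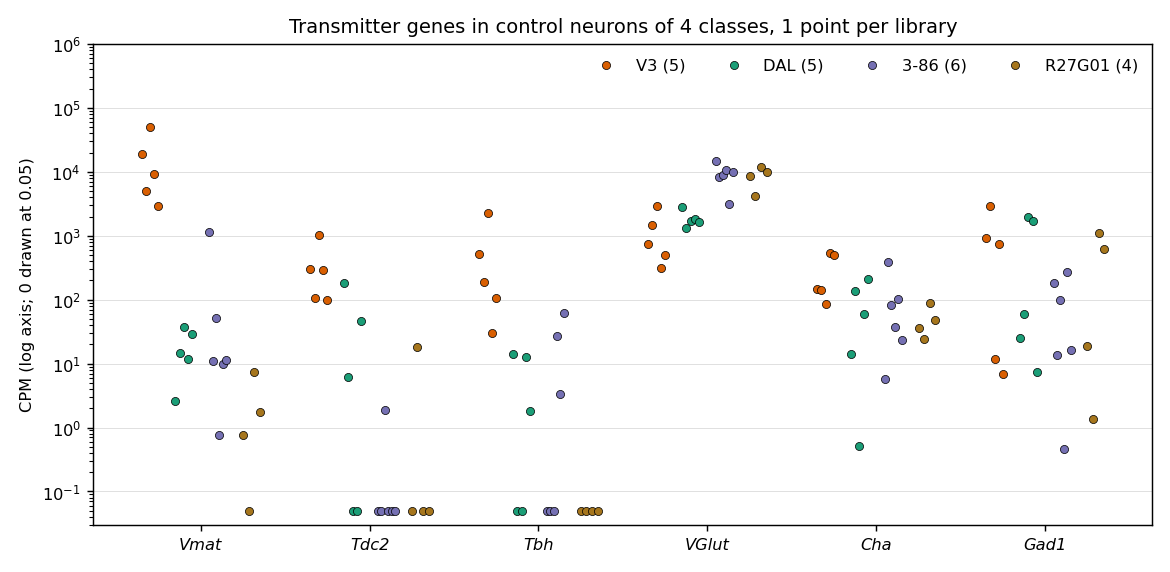
CPM (log axis, with 0 drawn at 0.05) of 6 transmitter genes in single control libraries of V3 (orange, 5), DAL (green, 5), 3-86 (purple, 6) and R27G01 (brown, 4). For Vmat the lowest V3 library, at 2928 CPM, lies above the highest of the other classes, a 3-86 library at 1127 CPM.

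Receptors for acetylcholine, the transmitter of Kenyon cells, were higher in V3 neurons. Of 10 nicotinic subunit genes, 9 were tested and 8 were higher, beside 12.8% of all genes tested. The list median was 6.06, and 6.09 with no filter on low counts. nAcRalpha-30D had 1266, 1752, 1580, 720 and 1045 CPM in V3 neurons, against 0.957, 2.82 and 6.12 CPM in whole flies (log2 difference 7.66 ± 0.80, adjusted p = 8.87e-05). nAcRbeta-64B had 892, 1827, 974, 1075 and 729 CPM in V3 neurons and 5.33, 8.29 and 13.2 CPM in whole flies (log2 difference 6.06 ± 0.61, adjusted p = 7.34e-05). In both, all 5 V3 libraries were high. nAcRalpha-7E was at 0 in all whole flies and had 13.2, 17.9, 28.2, 1.19 and 8.44 CPM in V3 neurons, which is at least 90.1-fold higher; its call was lost without whole fly 1 or 2. nAcRalpha-96Aa ranged 0.169 to 44.1 CPM in V3 neurons and 0 to 0.766 CPM in whole flies and was not called (adjusted p = 0.103). nAcRbeta-21C, which was not tested, had 0, 23.9, 0, 0.169 and 136 CPM in V3 neurons, so that 2 libraries held nearly all of it.

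Muscarinic and monoamine receptors followed, with 11 of 16 tested members of 19 called higher and none lower, beside 12.8% of all genes tested. With no filter on low counts, 17 were tested and 10 were higher. mAcR-60C, a muscarinic receptor, had 50.2, 118, 80.9, 2.54 and 85.5 CPM in V3 neurons, against 0, 0 and 0.153 CPM in whole flies (V3 to whole fly CPM ratio 1450, interval 261 to 57400, adjusted p = 0.00244). DopR, a dopamine receptor that mushroom body learning needs in Kenyon cells, had 127, 207, 90.2, 60.8 and 123 CPM in V3 neurons and 0.137, 0.497 and 0.766 CPM in whole flies (log2 difference 7.11 ± 0.84, adjusted p = 0.000184). DopEcR, a receptor for dopamine and ecdysone, had 348, 832, 445, 449.7 and 455 CPM in V3 neurons, against 5.2, 10.9 and 16.2 CPM in whole flies (log2 difference 4.66 ± 0.58, adjusted p = 0.000228). The V3 levels of DopEcR all lay far above those of the flies. DopR2 and D2R were at 0 in all whole flies. DopR2 had 0, 97.3, 28.7, 97.4 and 59.9 CPM in V3 neurons, at least 384-fold higher, and D2R had 70.8, 72, 13, 79 and 3.72 CPM, at least 272-fold higher. DopR2 was at 0 in the first V3 library.

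For serotonin, 5-HT1A had 29.4, 112, 40.7, 18.6 and 91.3 CPM in V3 neurons and 0 in all whole flies, at least 434-fold higher (adjusted p = 0.00108). 5-HT1B had 80.8, 109, 32, 126 and 54 CPM in V3 neurons, against 0.273, 0 and 0 CPM in whole flies (V3 to whole fly CPM ratio 756, interval 209 to 6240, adjusted p = 0.000607). 5-HT2 and 5-HT7 were not called, with 2.54 to 27.2 and 0.28 to 36.1 CPM in V3 neurons, against 0.663 to 2.6 and 0 to 0.82 CPM in whole flies. Of the octopamine receptors, oa2 had 163, 219, 380, 387 and 360.4 CPM in V3 neurons, against 1.64, 2.32 and 3.83 CPM in whole flies (log2 difference 5.97 ± 0.62, adjusted p = 8.95e-05), and Octbeta2R and Octbeta3R were also higher (4.16 ± 0.64 and 6.41 ± 1.06). Oamb was called at adjusted p = 0.0498 and lost the call in 7 of the 8 fits that left out 1 library. Against brains, DopR was lower in V3 neurons (-1.80, adjusted p = 0.0362); DopR was the 1 member of this list called there.

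Receptors for GABA and glutamate held both inhibitory and excitatory members. Of 23 genes, 18 were tested, 12 were higher and 1 was lower, beside 12.8% and 13.6% of all genes tested. The list median was 5.05. With no filter on low counts, 23 were tested, 12 were higher and 1 lower, and the median was 4.60. Rdl, the main GABA-gated chloride channel, had 1346, 3135, 1814, 1177 and 1650 CPM in V3 neurons, against 13.1, 17.2 and 15 CPM in whole flies (log2 difference 6.05 ± 0.51, adjusted p = 2.64e-05). GluClalpha, the glutamate-gated chloride channel, had 91.8, 581, 282, 89.8 and 400.5 CPM in V3 neurons and 4.78, 4.14 and 9.49 CPM in whole flies (log2 difference 4.60 ± 0.81, adjusted p = 0.00186). Nmdar1, the obligate subunit of NMDA receptors, had 76.9, 252, 106, 187 and 91.5 CPM in V3 neurons, against 0.41, 0 and 0.153 CPM in whole flies (log2 difference 8.60 ± 1.04, adjusted p = 0.000201). All 5 V3 libraries held these 3 genes. Nmdar2, the partner subunit, had only 0.981, 17.1, 34.1, 0.678 and 28.8 CPM in V3 neurons, against 0.547, 0 and 0 CPM in whole flies, and was not called (adjusted p = 0.0928). In brains Nmdar2 had 399.7 and 345 CPM, and V3 neurons were lower (V3 minus brain -4.17 ± 1.19, adjusted p = 0.0338). The muscle subunits GluRIIB and GluRIIC were at 0 in all V3 libraries, while GluRIIE, also known from the neuromuscular junction, had 36.3, 65.2, 53.1, 42.7 and 26.8 CPM in V3 neurons and 0.957, 1.66 and 0.919 CPM in whole flies (log2 difference 4.42 ± 0.90, adjusted p = 0.00444). clumsy, a kainate-type receptor gene, was the lower member, at 0 in V3 neurons and 2.6, 2.15 and 3.52 CPM in whole flies (at least 36-fold lower). GABA-B-R2, GABA-B-R3 and Lcch3 lost their calls without some 1 library.

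**Figure D5:**
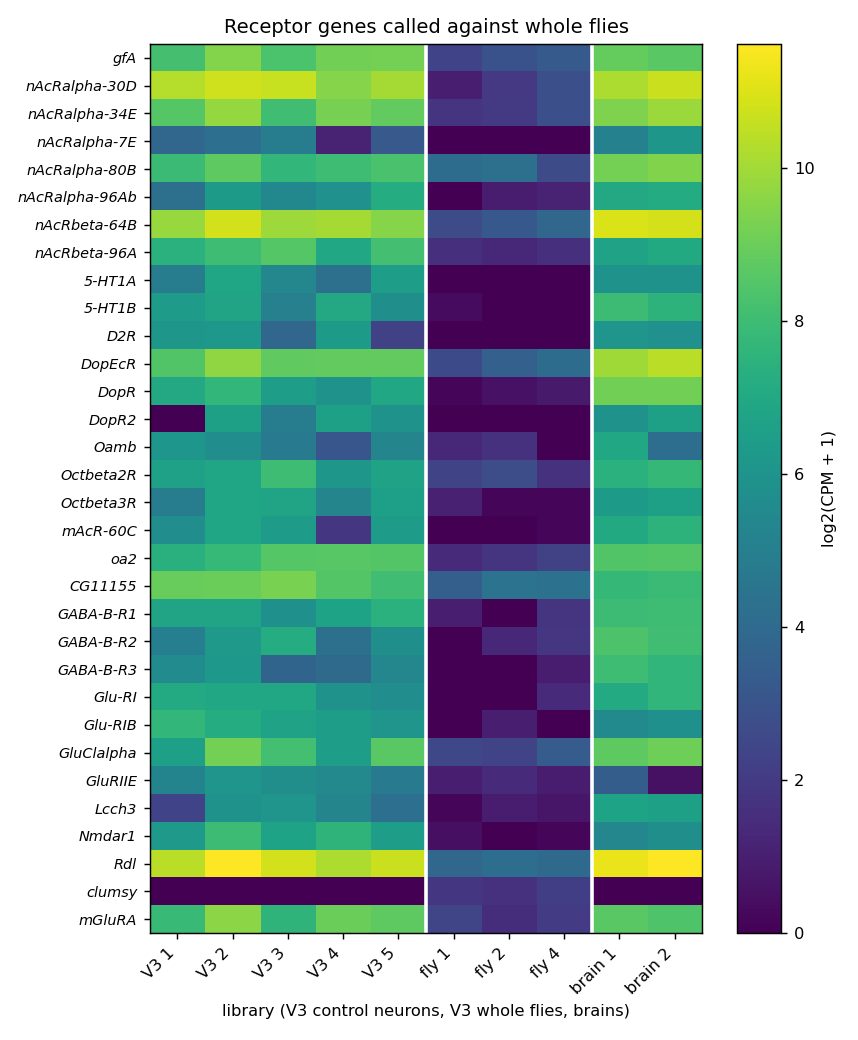
Log2(CPM + 1) of the nicotinic, muscarinic, monoamine, GABA and glutamate receptor genes called in the main comparison (rows) in each V3 control library, V3 whole fly and brain (columns). Rows such as Rdl, nAcRalpha-30D and DopEcR are bright in all 5 V3 libraries and dark in the 3 whole flies.

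Of 34 neuropeptide genes, 17 were tested and 3 were higher, Dh31, Dh44 and Nplp1, a share near the 12.8% of all genes tested. In all V3 libraries 10 were at 0. With no filter on low counts, 33 were tested, 3 were higher and 1 lower. The list median was then 0.29 in place of 2.53. Dh31, a diuretic hormone also used by brain neurons, had 1652, 753, 1.82, 562 and 1087 CPM in V3 neurons, against 1.37, 4.81 and 6.43 CPM in whole flies (log2 difference 6.71 ± 1.65, adjusted p = 0.0115), with the third library within the range of the flies; the call was lost without whole fly 1 or 2. Dh44, the homologue of corticotropin-releasing factor, had 57.6, 144, 38.1, 132 and 10.4 CPM in V3 neurons and 0 in all whole flies (at least 450-fold higher). Single libraries carried other peptides. capa had 47.6, 1299, 0.701, 0 and 0.579 CPM in V3 neurons, Dms 89, 4730, 2.38, 42.4 and 5.38 CPM and Pdf 358, 0.255, 0, 0 and 0 CPM, and none was called (adjusted p = 0.161, 0.0843 and 0.351). Library 2 held most of capa and Dms, and library 1 most of Pdf. sNPF, a peptide of Kenyon cells, had 62, 134, 0.14, 0 and 0.331 CPM in V3 neurons, against 9.02, 6.63 and 7.5 CPM in whole flies, and was not called (adjusted p = 0.676). Nplp2 had 23790, 3110, 1767, 27900 and 16880 CPM in V3 neurons, 5654, 6177 and 10790 CPM in whole flies (log2 difference 0.12 ± 0.83, adjusted p = 0.948) and 131 and 181 CPM in brains. It was lowest in V3 libraries 2 and 3, as Yp1 was.

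Of 8 genes that process or release peptides, 5 were higher, beside 12.8% of all genes tested. They were amon, a prohormone convertase, Pal2 and Phm, which amidate peptides, svr, a carboxypeptidase, and Caps, which acts in dense-core vesicle release. amon had 334, 805, 804, 458 and 235 CPM in V3 neurons, against 3.01, 3.31 and 1.84 CPM in whole flies (log2 difference 6.77 ± 0.65, adjusted p = 5.76e-05). Phm lost its call without some 1 library, and Fur1, Fur2 and Pal1 were not called. Of 30 neuropeptide receptor genes, 18 were tested and 8 were higher, beside 12.8% of all genes tested. With no filter on low counts, 30 were tested and 8 were higher, and the median was 3.26 in place of 4.11. SIFR, the receptor of SIFamide, had 222, 32.8, 485, 18 and 2.81 CPM in V3 neurons, against 0.137, 0 and 0 CPM in whole flies (V3 to whole fly CPM ratio 2660, interval 477 to 105000, adjusted p = 0.00581). AlstR, an allatostatin A receptor, had 0.818, 148, 136, 42.7 and 242 CPM in V3 neurons and 0.683, 0.332 and 0 CPM in whole flies (log2 difference 7.44 ± 1.72, adjusted p = 0.00806), the first library being close to the flies. CG33696 (5.67 ± 1.27) and AlCR2 (6.80 ± 1.51) were also higher. 4 of the 8 calls, those of DmsR-1, FR, Takr86C and star1, did not hold without some 1 library, and the count was 5, 4 and 5 without whole fly 1, 2 and 4.

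Most ion channel genes listed were higher. Of 29 voltage-gated and leak channel genes, 27 were tested and 21 were higher, beside 12.8% of all genes tested. None was called lower, and the median was 4.96. para, the sodium channel of action potentials, had 1064, 1680, 823.4, 877 and 652 CPM in V3 neurons, against 7.79, 6.96 and 6.89 CPM in whole flies (log2 difference 6.30 ± 0.52, adjusted p = 2.58e-05). cac, the calcium channel of transmitter release, had 1101 CPM in V3 library 2 and 445 to 542 CPM in the other 4 V3 libraries, against 2.6, 4.48 and 7.96 CPM in whole flies (log2 difference 6.04 ± 0.64, adjusted p = 9.86e-05). Sh, the potassium channel Shaker, had 1882, 3591, 1485, 1774 and 1774 CPM in V3 neurons, against 20.4, 23.4 and 28.2 CPM in whole flies (log2 difference 5.59 ± 0.51, adjusted p = 4.54e-05). The 3 genes were high in all V3 libraries. SK, slo, Shal, Shab, Shaw, eag, Ih and Hk were higher too, from 4.38 for Ih to 7.46 for Shaw. The inward rectifier genes Ir, Irk2 and Irk3 had log2 differences of -2.80, -2.61 and -3.08 and were not called. Among uncalled members, Irk2 had 0 to 11.9 CPM in V3 neurons and 12.6 to 22.4 CPM in whole flies, and the leak channel gene CG8713 had 0 to 1.57 CPM in V3 neurons and 2.91 to 3.98 CPM in whole flies, with no overlap in either. Ca-alpha1T, a T-type calcium channel, was higher than in whole flies (4.89 ± 0.74) and lower than in brains (-2.40, adjusted p = 0.00995), where it had 926 and 914 CPM. 19 of the 21 calls held without any 1 library, the exceptions being Task7 and sei.

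Signalling genes known from memory mutants were higher in part. Of 20 cAMP and protein kinase A genes, 19 were tested and 11 were higher, beside 12.8% of all genes tested. rut, the calcium-dependent adenylyl cyclase first known from learning mutants, had 79.7, 242, 67.3, 201 and 92.9 CPM in V3 neurons, against 4.1, 4.14 and 6.58 CPM in whole flies (log2 difference 3.94 ± 0.71, adjusted p = 0.00216). dnc, the phosphodiesterase that removes cAMP, had 1895, 2019, 1707, 947 and 1210 CPM in V3 neurons and 65.5, 65.7 and 61.4 CPM in whole flies (log2 difference 3.74 ± 0.41, adjusted p = 0.000107). Pka-C1, the main catalytic subunit, had 969.5, 630.3, 721, 356 and 604 CPM in V3 neurons, against 26.7, 26.4 and 39 CPM in whole flies (log2 difference 3.53 ± 0.45, adjusted p = 0.000273). Ac3 (6.43 ± 0.58), Epac (5.40 ± 0.58) and Pka-R2 (3.64 ± 0.43) were higher as well. Pka-R1, Pde1c, CrebA and CrebB-17A were not called; CrebB-17A, a transcription factor of long-term memory, had 8.51, 16.2, 9.54, 4.91 and 19.2 CPM in V3 neurons and 6.56, 4.48 and 5.67 CPM in whole flies. G-salpha60A, the stimulatory G protein, was higher than in whole flies (3.74 ± 0.62) and than in brains (2.65, adjusted p = 0.0225). The calls of Pka-C3 and TORC were lost without some 1 library.

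Calcium signalling and postsynaptic genes gave 11 higher of 16 tested among 18, beside 12.8% of all genes tested. CaMKII had 2732, 2745, 2858, 1509 and 1120 CPM in V3 neurons, against 80.4, 81.6 and 79.2 CPM in whole flies (log2 difference 3.92 ± 0.48, adjusted p = 0.000205). The calcineurin subunit CanA-14F had 1537, 2168, 1557, 813 and 605 CPM in V3 neurons, 28.4, 30.3 and 22.2 CPM in whole flies (log2 difference 4.79 ± 0.55, adjusted p = 0.000146) and 149 and 133 CPM in brains (V3 minus brain 3.68 ± 0.58, adjusted p = 0.00203). dlg1, a scaffold of the synapse, and Cam, calmodulin, were also higher (3.42 ± 0.42 and 1.90 ± 0.34). All 5 V3 libraries of these 4 genes lay above the whole flies. homer ranged 1.64 to 238 CPM in V3 neurons and 11.2 to 21.2 CPM in whole flies and was not called. rl, the MAP kinase, is listed at 0 in all V3 libraries, whole flies and brains.

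Translation regulators went both ways. Of 18, 12 were higher and 5 were lower, beside 12.8% and 13.6% of all genes tested. The lower genes were osk, nos, me31B, tral and orb. orb2, the CPEB protein that long-term memory needs, had 1312, 1848, 951, 672 and 631 CPM in V3 neurons, against 18.4, 15.9 and 11.6 CPM in whole flies (log2 difference 5.30 ± 0.54, adjusted p = 8.43e-05). bru-3, an RNA-binding protein gene, had 1850, 5822, 2367, 2611 and 1243 CPM in V3 neurons and 10.7, 6.96 and 8.27 CPM in whole flies (log2 difference 7.48 ± 0.74, adjusted p = 6.46e-05). pum, the translational repressor Pumilio, had 1335, 1897, 1131, 1055 and 613 CPM in V3 neurons, against 71.4, 71.8 and 63.9 CPM in whole flies (log2 difference 3.29 ± 0.46, adjusted p = 0.000489). These 3 were high in all V3 libraries. orb, the other CPEB gene, which acts in the ovary and has been tied to memory in V3 neurons, had 1.15, 10.3, 74.6, 34.1 and 17.1 CPM in V3 neurons, against 129.9, 146 and 93.9 CPM in whole flies. By edgeR's test it fell by 3.00 ± 0.91 on the log2 scale (adjusted p = 0.0326). Its brain levels were 363 and 500.3 CPM, and V3 neurons were lower there too (V3 minus brain -3.54 ± 0.91, adjusted p = 0.0221). The groups did not overlap, but the orb call against whole flies was lost without any 1 of V3 libraries 2, 4 and 5 or any 1 whole fly. me31B, a repressor in RNA granules, had 44.2, 116, 189, 33.5 and 102 CPM in V3 neurons and 3496, 4363 and 1741 CPM in whole flies (log2 difference -5.89 ± 0.58, adjusted p = 6.52e-05); the ovary RNA of the whole flies is given below. Fmr1, the fragile X gene, was not called (10.7 to 81.1 CPM in V3 neurons and 33.7 to 59.7 CPM in whole flies).

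Activity-regulated genes gave 5 higher of 12, beside 12.8% of all genes tested. Hr38, a nuclear receptor induced by neuronal activity, had 0.491, 197, 46.7, 47.3 and 246 CPM in V3 neurons, against 2.32, 3.31 and 2.3 CPM in whole flies (log2 difference 4.44 ± 1.42, adjusted p = 0.0406), with the first library below the flies. sr, the homologue of Egr genes, had 10.3, 134, 37.3, 24.4 and 111 CPM in V3 neurons and 1.91, 0 and 2.91 CPM in whole flies (log2 difference 4.30 ± 1.41, adjusted p = 0.0447). Hr46 (4.88 ± 0.79), CG14186 (7.11 ± 0.60) and CG8910 (5.16 ± 1.39) were higher, while kay and Jra, the Fos and Jun genes, were not called (-0.55 ± 0.59 and -0.37 ± 1.03). The calls of Hr38, sr and CG8910 were lost without some 1 library, and the count of the list was 2 without whole fly 2 and 3 without V3 library 2 or 5 or whole fly 1 or 4.

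Transcription factors of neuronal identity were higher in part. Of 67 listed, 36 were tested, 22 were higher and none was lower, beside 12.8% and 13.6% of all genes tested. Their median was 3.86. In all V3 libraries 12 were at 0. The filter on low counts bears on these counts. Without it, 60 were tested, 20 were higher and 2 lower, and the median was 2.96. mamo, a BTB zinc finger factor of neuronal identity, had 705, 1142, 898, 1319 and 1217 CPM in V3 neurons, 36, 33 and 40.3 CPM in whole flies (log2 difference 4.00 ± 0.42, adjusted p = 9.24e-05) and 188 and 158 CPM in brains (V3 minus brain 3.07 ± 0.47, adjusted p = 0.00171). Lim1, a LIM homeobox gene, had 537, 340.2, 140.4, 423 and 226 CPM in V3 neurons, 3.83, 0.663 and 1.38 CPM in whole flies (log2 difference 6.57 ± 0.85, adjusted p = 0.000284) and 30.7 and 57.2 CPM in brains (V3 minus brain 3.37 ± 0.83, adjusted p = 0.0185). chinmo, a temporal identity factor, had 786, 1619, 959, 832 and 900 CPM in V3 neurons and 6.56, 4.48 and 14.2 CPM in whole flies (log2 difference 5.99 ± 0.63, adjusted p = 9.43e-05). All 5 V3 libraries were high in these 3 genes. The homeobox gene ems had 24.5, 15.8, 29.9, 118 and 7.04 CPM in V3 neurons, against 0, 0.663 and 0 CPM in whole flies (log2 difference 6.80 ± 1.83, adjusted p = 0.0181) and 0 and 0.44 CPM in brains. Its highest level among the 15 control libraries of DAL, 3-86 and R27G01 was 0.199 CPM, and the ems call was lost without whole fly 1 or 4.

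Of the homeotic genes, Ubx was higher. Ubx, the Hox gene of the posterior thorax, had 404, 79.5, 47.7, 8.64 and 153 CPM in V3 neurons, 3.14, 4.97 and 9.19 CPM in whole flies (log2 difference 3.66 ± 1.13, adjusted p = 0.0346) and 1.5 and 0.44 CPM in brains (V3 minus brain 7.63 ± 1.71, adjusted p = 0.0117). The other classes held it as well, with lowest, median and highest levels of 314, 584 and 1454 CPM in DAL, 768, 1368 and 2997 CPM in 3-86 and 117, 322 and 527 CPM in R27G01. Its call against whole flies was lost without any 1 of V3 libraries 1, 2 and 5 or any 1 whole fly. abd-A, Dfd, lab and eve were at 0 in all V3 libraries. The Hox cofactors exd (2.03 ± 0.40) and hth (2.29 ± 0.44) were higher than in whole flies, and exd also than in brains (2.49, adjusted p = 0.00575). Factors of other brain neurons, D, erm, fd102C, opa and Lim3, were lower than in brains. D had 0, 0, 0, 0 and 0.0828 CPM in V3 neurons and 253 and 206 CPM in brains (adjusted p = 0.000347), and erm, fd102C and opa were at 0 in all V3 libraries. 11 of the 22 factor calls held without any 1 library, and the count was 13, 13 and 14 without whole fly 1, 2 and 4.

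Kenyon cells give input to V3 dendrites, and their markers were read as well. Of 17 genes, 14 were tested and 11 were higher, beside 12.8% of all genes tested. Among the 11 were mub, chinmo, DopR, rut and trio. Of these, mub, DopR and trio were lower in V3 neurons than in brains (-1.39, -1.80 and -2.37). The defining factor ey had 0, 3.45, 0, 0 and 0 CPM in V3 neurons, against 0.82, 0.166 and 0 CPM in whole flies and 106 and 64.2 CPM in brains. dac had 0, 0, 0, 3.9 and 2.57 CPM in V3 neurons, against 0, 0.332 and 0.306 CPM in whole flies and 115 and 73.9 CPM in brains. Both factors were at or near 0 in every V3 library. The vesicular transporter gene prt ranged from 0 to 2.94 CPM in V3 neurons. toy, a paralogue of ey, had 490, 482, 12.5, 0.508 and 109 CPM in V3 neurons and 3.01, 1.33 and 5.97 CPM in whole flies, and was not called (adjusted p = 0.0628).

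Wiring and adhesion genes made the longest list of higher genes. Of 77, 73 were tested, 51 were higher and none was lower, beside 12.8% and 13.6% of all genes tested. Their median was 5.17. Without any 1 library, 39 of the 51 kept the call. With no filter on low counts, 77 were tested, 51 were higher and 1 lower. dpr8, of the Dpr family of synaptic partner recognition, had 558, 952, 588, 915 and 628 CPM in V3 neurons, against 4.1, 5.97 and 2.91 CPM in whole flies (log2 difference 6.59 ± 0.51, adjusted p = 1.63e-05). dpr9 had 55.6, 172, 89.5, 94.2 and 39.3 CPM in V3 neurons and 0, 0 and 0.306 CPM in whole flies (V3 to whole fly CPM ratio 853, interval 236 to 7040, adjusted p = 0.000658). Ten-a, a teneurin, had 1404, 2493, 2347, 1603 and 1578 CPM in V3 neurons, 7.52, 8.79 and 13.9 CPM in whole flies (log2 difference 6.66 ± 0.53, adjusted p = 2.06e-05) and 553 and 534 CPM in brains (V3 minus brain 2.23 ± 0.48, adjusted p = 0.00908). All 3 genes were high in every V3 library. beat-Ic, a Beat family gene, had 701, 652, 516, 339.9 and 772 CPM in V3 neurons, 3.14, 0.332 and 2.45 CPM in whole flies (log2 difference 7.30 ± 0.80, adjusted p = 0.000108) and 54.7 and 53.2 CPM in brains (V3 minus brain 3.87 ± 0.73, adjusted p = 0.00482). kirre and klg were likewise above brains (2.86 and 2.58, adjusted p = 0.0224 and 0.0337). Sema-1b, dpr6, dpr12 and sli were lower in V3 neurons than in brains. sli, the Slit ligand, had 4.42, 24.5, 14.2, 0.169 and 54 CPM in V3 neurons, 1.5, 2.98 and 4.13 CPM in whole flies and 244 and 326 CPM in brains. Other members varied between V3 libraries: beat-VII had 7.03, 243, 59.7, 1.19 and 74.9 CPM and dpr6 19.5, 58.1, 3.79, 0.339 and 16.6 CPM, and neither was called.

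Lower in V3 neurons were genes of other organs. All 25 tested of 27 gut genes were lower, beside 13.6% of all genes tested. Their median was -10.80 (-9.85 with genes at 0 set to their bound). Jon65Aiv, a gut serine protease, had 0, 0, 0.28, 0.169 and 0.166 CPM in V3 neurons, against 8019, 7873 and 7377 CPM in whole flies (log2 difference -16.58 ± 0.85, adjusted p = 1.72e-06). CG9468 was at 0 in V3 neurons and had 1439, 1547 and 2069 CPM in whole flies, at least 21900-fold lower. Peritrophin-15a was at 0 in V3 neurons too and at least 5060-fold lower. CG17192 and CG33109, known by number only, were at least 7650-fold and 5540-fold lower. The others among the 15 were LysC, deltaTry, CG10911, CG8997, CG42397, CG42704 and CG8834, with osk, Vml and Fad2 given below. CG10911 had 0, 0.128, 0, 0.508 and 0.497 CPM in V3 neurons, against 6906, 5492 and 10520 CPM in whole flies (log2 difference -15.77 ± 1.08, adjusted p = 8.51e-06). Trypsin, Jonah and lysozyme genes belong to families of near-identical copies, whose reads the counting could divide.

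Muscle genes gave 16 lower of 23 tested, beside 13.6% of all genes tested, with a median of -4.92. Act88F, the flight muscle actin, was at 0 in all V3 libraries, against 4.1, 8.79 and 66.2 CPM in whole flies (adjusted p = 0.00592, at least 337-fold lower). Argk, arginine kinase, had 1200, 1552, 2685, 973 and 3265 CPM in V3 neurons and 2186, 2087 and 5518 CPM in whole flies (log2 difference -1.72 ± 0.50, adjusted p = 0.0269), and its call was lost without any 1 of V3 libraries 1, 2 and 4 or whole fly 4. Ovary genes gave 14 lower of 18 tested, beside the same share of all genes. osk, oskar of the oocyte, had 0, 0, 0, 0 and 0.331 CPM in V3 neurons, against 1821, 1990 and 1480 CPM in whole flies (log2 difference -14.86 ± 0.95, adjusted p = 6.24e-06). Vml, a vitelline membrane gene, had 0, 0, 0, 0 and 0.0828 CPM in V3 neurons, against 504, 482 and 731 CPM in whole flies (whole fly to V3 CPM ratio 22300, interval 4010 to 882000, adjusted p = 1.72e-06). Chorion RNA differed between the whole flies: Cp36 had 0.164, 0.255, 269, 0.508 and 0.579 CPM in V3 neurons, against 8229, 8846 and 23.6 CPM in whole flies 1, 2 and 4, and was not called (adjusted p = 0.0581). Summed over 21 ovary genes, V3 neurons held 377, 549.6, 1095, 329 and 463 CPM, against 25190, 47580 and 6757 CPM in whole flies, with whole fly 4 the lowest of the 3. Fad2, a desaturase of female pheromone cells, was at 0 in V3 neurons and had 130.3, 215 and 349.7 CPM in whole flies (at least 2970-fold lower). Testis genes summed to 0 to 35.9 CPM in V3 neurons and 1.78 to 3.98 CPM in whole flies.

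Ribosomal protein genes were lower in V3 neurons. Of 92 listed, 84 were tested, 58 were lower and none was higher, beside 13.6% and 12.8% of all genes tested. Their median was -1.82. Their summed levels were 63360, 30770, 38520, 101500 and 59600 CPM in V3 neurons, against 139500, 131100 and 137300 CPM in whole flies. RpLP0, a stalk protein, had 518, 195, 442, 344 and 728 CPM in V3 neurons and 4554, 4325 and 4317 CPM in whole flies (log2 difference -4.18 ± 0.42, adjusted p = 7.40e-05). RpS3A had 2533, 885, 1178, 3388 and 1509 CPM in V3 neurons, against 10940, 9276 and 10140 CPM in whole flies (log2 difference -3.22 ± 0.51, adjusted p = 0.00107). The groups did not overlap in either gene. RpS5b, a copy that is known from the ovary, had 0, 0, 17.2, 0.678 and 1.08 CPM in V3 neurons and 991, 871 and 761 CPM in whole flies (log2 difference -8.74 ± 1.68, adjusted p = 0.00355). The count depended on scaling and libraries: 30 were lower with library totals in place of TMM, 30 with the V3 libraries of 2 lanes alone, 39 with trained V3 libraries, 35 without V3 library 1, 28 without whole fly 4 and 38 without V3 libraries 3 and 5. Against brains the direction was the other way, with 71 of 84 higher in V3 neurons, none lower and a median of 3.56; without brain 1 and without brain 2, 33 and 20 were called higher. The brains summed to 13010 and 9509 CPM.

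The vacuolar proton pump, which acidifies synaptic vesicles and other compartments, differed in its paralogous subunits. Of 33 genes, 20 were tested, 3 were higher and 7 were lower. Of all genes tested, 12.8% were called higher and 13.6% lower, so the higher count is near the share of all genes. VhaM9.7-a had 959, 704, 1020, 762 and 514 CPM in V3 neurons, against 3.42, 1.99 and 4.9 CPM in whole flies (log2 difference 6.96 ± 0.60, adjusted p = 2.98e-05). Vha68-1 had 1440, 1282, 4095, 1079 and 796 CPM in V3 neurons and 37.2, 31.2 and 67.2 CPM in whole flies (log2 difference 4.35 ± 0.70, adjusted p = 0.00113), while its paralogue Vha68-2 had 43.2, 57.3, 11.5, 89 and 78.5 CPM in V3 neurons and 809, 857 and 953 CPM in whole flies (log2 difference -4.81 ± 0.59, adjusted p = 0.000216). For the a subunits, Vha100-1, the neuronal copy, was higher (2.32 ± 0.42), and Vha100-2 was lower (-4.99 ± 0.78). Vha100-5 had 0, 0, 0, 0.169 and 0 CPM in V3 neurons, against 45.4, 55.9 and 70.8 CPM in whole flies (adjusted p = 8.95e-05). The groups did not overlap in any of these genes. With library totals in place of TMM, 5 were higher and 4 lower, and the list median was 0.19 in place of -0.70.

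Of 17 heat shock genes tested, 3 were higher and 4 lower, which is not far from the 12.8% and 13.6% of all genes tested. Hsp83, the Hsp90 gene, had 313, 329, 838, 938 and 685 CPM in V3 neurons, against 11530, 10790 and 7957 CPM in whole flies (log2 difference -4.85 ± 0.49, adjusted p = 7.58e-05). Hsp26 and Hsp27 were lower (-2.90 ± 0.59 and -5.04 ± 1.00), and Hsp23 and Hsp67Ba were higher (5.88 ± 0.89 and 5.02 ± 0.72). Hsp67Bc was called higher too (6.22 ± 1.88) and lost the call in 5 of the 8 fits that left out 1 library. Hsp23 had 265, 142, 277, 103 and 102 CPM in V3 neurons, 0.273, 1.82 and 2.76 CPM in whole flies and 6.75 and 6.16 CPM in brains. The Hsp70 copies, whose reads cannot be told apart between near-identical genes, were not called. Antimicrobial peptide genes gave 1 higher, Mtk (5.39 ± 1.62), and 1 lower, Drs (-2.81 ± 0.75), of 9 tested, near the same shares of all genes. Both calls were lost without whole fly 4, and that of Mtk also without V3 library 4 or 5 or whole fly 1.

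Few genes set V3 apart from the other classes at the threshold. For each class, the difference between its neurons and the flies of its own driver was formed, and that of V3 was set against the mean of DAL, 3-86 and R27G01. Of 9898 genes, 0 were higher (0%) and 2 were lower (0.0202%) by edgeR, while 397 were higher and 417 lower at an unadjusted p under 0.05, and DESeq2 called 210 higher and 132 lower. CG6910, which the files give by number only, had 486, 129.6, 17.9, 172 and 411 CPM in V3 neurons and 774, 824 and 635 CPM in V3 whole flies (difference of differences -4.60 ± 0.84, adjusted p = 0.039). The neurons of DAL, 3-86 and R27G01 had 103, 146 and 969 CPM, 129.7, 319 and 484 CPM and 148, 527.7 and 559.9 CPM of it, as lowest, median and highest in turn, while their whole flies ranged over 15 to 98, 26.4 to 44.3 and 48.8 to 153 CPM. The 3 V3 whole flies thus lay above all whole flies of the other drivers, and 4 of the 5 V3 neuron libraries lay within the range of the other neurons. CG10960 had 246, 321, 455, 218 and 265 CPM in V3 neurons and 256, 241 and 226 CPM in V3 whole flies (difference of differences -2.17 ± 0.41, adjusted p = 0.039). Whole flies of the other drivers had 82 to 159.9, 71 to 93.3 and 141 to 164 CPM in the same order, again below all V3 whole flies. Both calls were lost without any 1 V3 whole fly and without V3 library 2 or 5, and that of CG10960 also without V3 library 1 and with DESeq2's size factors. They depend on which classes V3 is set against: with the mean of all other 6 classes in place of these 3, the value was -1.95 for CG6910 (adjusted p = 0.506) and -1.60 for CG10960 (adjusted p = 0.0697), and 2 genes were higher and 1 lower. Without V3 library 4, 3 genes were higher and 25 lower.

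List members that missed that threshold are given as values. Nplp1, a neuropeptide gene, had 248, 493, 239, 73.2 and 89.5 CPM in V3 neurons and 15.2, 12.1 and 19 CPM in whole flies (log2 difference 3.00 ± 0.70, adjusted p = 0.00858). As lowest, median and highest, DAL neurons held 4119, 5623 and 19720 CPM, 3-86 neurons 93.6, 351 and 729.6 CPM and R27G01 neurons 239, 241 and 591 CPM (difference of differences -3.45 ± 0.70, adjusted p = 0.0596). V3 overlapped 3-86 and R27G01 and lay below DAL. The value ranged from -3.92 to -1.36 over the 14 settings and was called in 4 of them, with adjusted p from 0.00135 by DESeq2 to 0.573. Of the 84 ribosomal protein genes tested, 73 had a lower V3 difference at an unadjusted p under 0.05, beside 417 of all 9898 genes. Their median was -1.40, and none passed the adjustment. Lim1 ranged from 140.4 to 537 CPM in V3, and was at 3.47, 28.1 and 190.3 CPM as lowest, median and highest in DAL, 1.04, 28.2 and 72.3 CPM in 3-86 and 0.633, 10.5 and 26.6 CPM in R27G01 (difference of differences 4.09 ± 1.41, adjusted p = 0.305).

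The 2 brain libraries held 1333577 and 2272595 counts and differed by more than sampling noise, with a chi-square over degrees of freedom of 13.4, beside 37.57 to 96.3 between the deeper V3 whole flies. If they are 1 source, p-values against brains rest on technical spread on that side. Against brains, 899 of 9634 genes (9.33%) were higher in V3 neurons and 553 (5.74%) were lower. With the size factors of DESeq2 the split was 749 higher and 724 lower. With library totals, an alternative added after seeing the data, 48.2% of 1533 calls were higher, against 61.9% with TMM, so the balance of directions depends on the scaling; the median of all genes was 0.26 with TMM and 0.00 with either of the others. Leaving out brain 1 or 2 left 235 to 237 higher and 68 to 93 lower genes. snRNA:7SK, a small nuclear RNA, had 101, 49.6, 25.1, 73.5 and 81.3 CPM in V3 neurons, 12.7, 22.1 and 15 CPM in whole flies and 24910 and 14740 CPM in brains (V3 minus brain -7.76 ± 0.54, adjusted p = 4.47e-05). The 10 higher genes with the smallest p were elm, skpA, CG7407, CG32267, Atox1, CG7911, CG8446, fabp, FK506-bp2 and bic. Among them elm had 219, 159.6, 212, 140 and 332 CPM in V3 neurons, 86.8, 103.6 and 114 CPM in whole flies and 2.25 and 1.76 CPM in brains. Atox1, a copper chaperone gene, had 230.1, 263, 210, 273 and 278 CPM in V3 neurons, 93.4, 102 and 87.7 CPM in whole flies and 9 and 9.24 CPM in brains. The brain levels of both genes lay below the whole-fly levels too, and neither differed at the threshold between V3 neurons and whole flies (adjusted p = 0.794 and 0.235). Beside snRNA:7SK and D, the lower genes with the smallest p were CG11873, CG10514, CG14619, tud, CG30116, l(3)L1231, wun2 and CG9086. brp and trio were lower in V3 neurons than in brains (-1.76 and -2.37, adjusted p = 0.00687 and 0.00333), and Syx1A and jeb were higher (2.14 and 1.87, adjusted p = 0.00408 and 0.027).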

How the data were processed

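RNA-seq libraries had been made from 4 aspirated neurons, a brain or a whole fly. The values used are whole-number counts of reads per gene that the authors deposited, 1 file per sequencing run. The submitters' processing notes name cutadapt, TopHat2, Bowtie, Bowtie2, HTSeq and DESeq2 1.4 and the genome build BDGP5, without roles or order, and strand was not stated. The authors' 3 tables of the whole series (298 per-sample columns) were not used here.

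Runs of a library were summed, which gave 101 libraries from 185 deposited samples; the runs of V3 libraries on 2 lanes differed by no more than sampling noise (chi-square over degrees of freedom, 0.983 to 1.015). Counts were tested with edgeR 4.0.16 (R 4.3.3; filterByExpr, TMM, robust quasi-likelihood F-test) on the groups compared, with p-values adjusted over all genes tested (Benjamini-Hochberg) and a threshold of 0.05. The comparison with the other classes contrasted V3 minus whole fly with the mean of the same difference in DAL, 3-86 and R27G01. The fits were tested on simulated counts. DESeq2 1.42.0, other scalings and filters, other sets of libraries and leaving out each library in turn were tried. Replicate numbers of neurons follow accession order and pair nothing.

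The comparisons and 33 gene lists, with 860 genes, were chosen with earlier results of these data known; 5 listed names had no symbol in the file. The genes named are list members, the 15 genes per direction with the largest log2 difference among called genes whose groups do not overlap and whose higher group averages 50 CPM or more, and up to 10 per direction by p in the comparisons with brains and other classes.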

Additional observations from a re-analysis of the deposited data

Results flagged for a closer look

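The 5 V3 control libraries were searched for a value whose gap to its nearest neighbour was more than 0.71 of the whole range (Dixon's criterion for 5 samples). Summed list levels and the called genes named here with a mean of at least 1 CPM made 176 such groups, and 28 had a value that stood apart. The criterion flags about 5% of groups by chance if values are normally distributed and groups independent. CPM need not be normally distributed, and list sums share genes with single members. How many of the 28 would be met by chance was therefore not settled.

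V3 library 2 was the high one for receptors and channels. Its summed CPM was 6000 for nicotinic receptors, 5995 for GABA and glutamate receptors and 15990 for voltage-gated and leak channels. Of single genes, it held 3591 CPM of Sh, a potassium channel subunit, 1529 CPM of slo, a calcium-activated potassium channel, 1101 CPM of cac, a calcium channel, and 832 CPM of DopEcR, a receptor for dopamine and ecdysone. The transcription factor gene chinmo at 1619 CPM and the adhesion gene kirre at 811.1 CPM were also apart in this library.

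V3 library 3 was the high one for the vacuolar proton pump, with a summed 19960 CPM and 4095 CPM of its subunit gene Vha68-1. The same library held 2275 CPM of Tbh and 1023 CPM of Tdc2, enzymes of octopamine synthesis, 253.7 CPM of the octopamine receptor gene Octbeta2R and 8955 CPM of Cam, which encodes calmodulin. It also held the highest sums of gut markers, 787.1 CPM, and of female germline markers, 1095 CPM, with 17.25 CPM of the germline-biased ribosomal gene RpS5b and 946.3 CPM of CG43222.

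V3 library 5 was the high one for photoreceptor markers, with a summed 23220 CPM, and for hemocyte markers, with 2468 CPM, among them Hml at 713.2 CPM. Hsp27 at 101.6 CPM, bic at 584.9 CPM and mub at 1227 CPM stood apart in the same library. V3 library 4 had 353.1 CPM of Pka-C3 and 118.3 CPM of ems as high values, and 81.33 CPM of tral as a low one.

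The V3 difference from whole flies departed from the mean difference of DAL, 3-86 and R27G01 in the test of that difference for 2 genes, CG10960 by -2.17 and CG6910 by -4.60 on the log2 scale. Against the mean of all other 6 classes the values were -1.60 and -1.95, and neither was called.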

How the results depend on the processing

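Against whole flies, 2318 genes were called. The count was 3530 with all neuron classes and whole flies in 1 fit and 4952 against the whole flies of all 8 genotypes; without 1 library it ranged over 1751 to 2558, and the cause of these moves was not tested. Other settings gave 2257 to 3017 calls. The 30 genes named by size of change stayed called in every setting run but 1, where trained V3 libraries in place of control libraries left 29. The 30 were chosen as large, called and without overlap in libraries that most settings reuse, so their staying called was largely fixed in advance. Against the whole flies of all 8 genotypes, the log2 difference was 0.67 for CG10960 and 0.67 for CG6910. With 2-lane libraries alone, that of sNPF was -6.14. Of the other values of named genes against whole flies under all settings, 195 lost their call, 68 gained one and 3465 did neither. The 2 calls against the other classes became 1 with DESeq2's size factors, 342 with DESeq2 (210 higher, 132 lower), 4 with no filter on low counts, 0 to 28 without 1 library and 3 (2 higher, 1 lower) against all other 6 classes, where neither CG6910 (-1.95, adjusted p = 0.506) nor CG10960 (-1.60, adjusted p = 0.0697) was called. Against brains, 1452 genes were called by edgeR and 2429 by DESeq2, and without 1 library the count ranged over 303 to 1695, the lowest counts having 1 brain left, which was assumed to vary like the V3 libraries. Without 1 library, the log2 difference from brains ranged from -7.98 to 1.20 for CG8997, positive without brain 2 alone, and from -6.96 to 3.10 for Pdf, negative without V3 library 1 alone. No paired analysis was possible because the neuron libraries carry no replicate number in their labels that pairs them with a whole fly. Genes at 1 to 3 counts in a group are limited by depth, and their ratios cover counting error only.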
